A study of Mus musculus with 18 samples.

Results

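The chemokines and chemokine receptors of the mouse array are described here in primary embryonic fibroblasts given TGF-β1. A gene was taken when its single symbol began with Ccl, Cxcl, Cx3cl or Xcl, for the ligands, or with Ccr, Cxcr or Cx3cr, for the receptors, followed by a number. This gave 49 of the 18194 genes on the array, of which 33 were ligands and 16 were receptors. No measured value entered that choice, and each gene was read by its brightest probe set.

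Chemokines are small secreted or membrane-held proteins that steer migrating cells through G protein-coupled receptors, most of them on leukocytes. Fibroblasts of connective tissue are a main source of Cxcl12, which holds blood cell precursors through its receptor Cxcr4, and they release Ccl2 and the Cxcl1 family when inflammatory cytokines switch on NF-κB. TGF-β1 turns fibroblasts towards matrix production and is known to act on several chemokine genes.

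The arrays measured cells grown from 14-day embryos of the mouse after the head and liver had been taken off. There were 6 groups of 3 arrays. Wild-type embryos 1, 2 and 3, and embryos 1, 2 and 3 labelled NFI-C knock-out, which should lack the transcription factor gene Nfic, each gave an untreated culture, a culture after 1 h and a culture after 10 h of TGF-β1 at 12.5 ng/ml. All cultures, the untreated ones too, had first been moved from serum to DMEM with AlbuMAX II and an insulin, transferrin and selenium mix. No culture left without TGF-β1 for the full 10 h is among the samples, and both times of a genotype are set against the same untreated arrays. The 3 embryos of a group are separate animals, and the labels do not say how the knock-out was made.

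Values are log2 expression on the scale of the RMA summary, so that 1 unit is a doubling, and they are compared only within a gene because the brightness of different probe sets cannot be set side by side. The 18 arrays had medians of 4.74 to 4.81. The labelled target did not separate the genotypes: Nfic differed by -0.10 ± 0.16 (SE), -0.02 and -0.09 between knock-out and wild type in untreated, 1 h and 10 h cells, and which part of the gene its probe sets read against the deletion is not known here. Knock-out therefore means "as labelled" throughout. Set against the 40th percentile of each array, at 4.16 to 4.25, the mean of 12 fibroblast markers was well above it on every array (11.19 to 12.04), and so was that of 22 leukocyte and macrophage markers (7.52 to 10.09). The means of the neutrophil, lymphocyte and endothelial lists, at 3.67 to 4.44, were near or below it. That of the epithelial list was a little above it, at 4.32 to 4.97.

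Of the 49 genes 36 (27 ligands and 9 receptors) passed the filter for testing, which asked for a value above the 40th percentile of the array, a level of 4.16 to 4.25, on at least 3 arrays. The 13 genes that did not pass were Cxcl2, Cxcl3, Cxcl9, Cxcl11, Ccl11, Xcl1, Ccr1l1, Ccr3, Ccr7, Ccr8, Ccr9, Cxcr2 and Cxcr5. Cxcr6 and Cxcl5 passed on 6 arrays each, and for Cxcr6 these were mostly 10 h arrays, so its place among the tested genes depended on the group in which it was high.

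**Figure D1:**
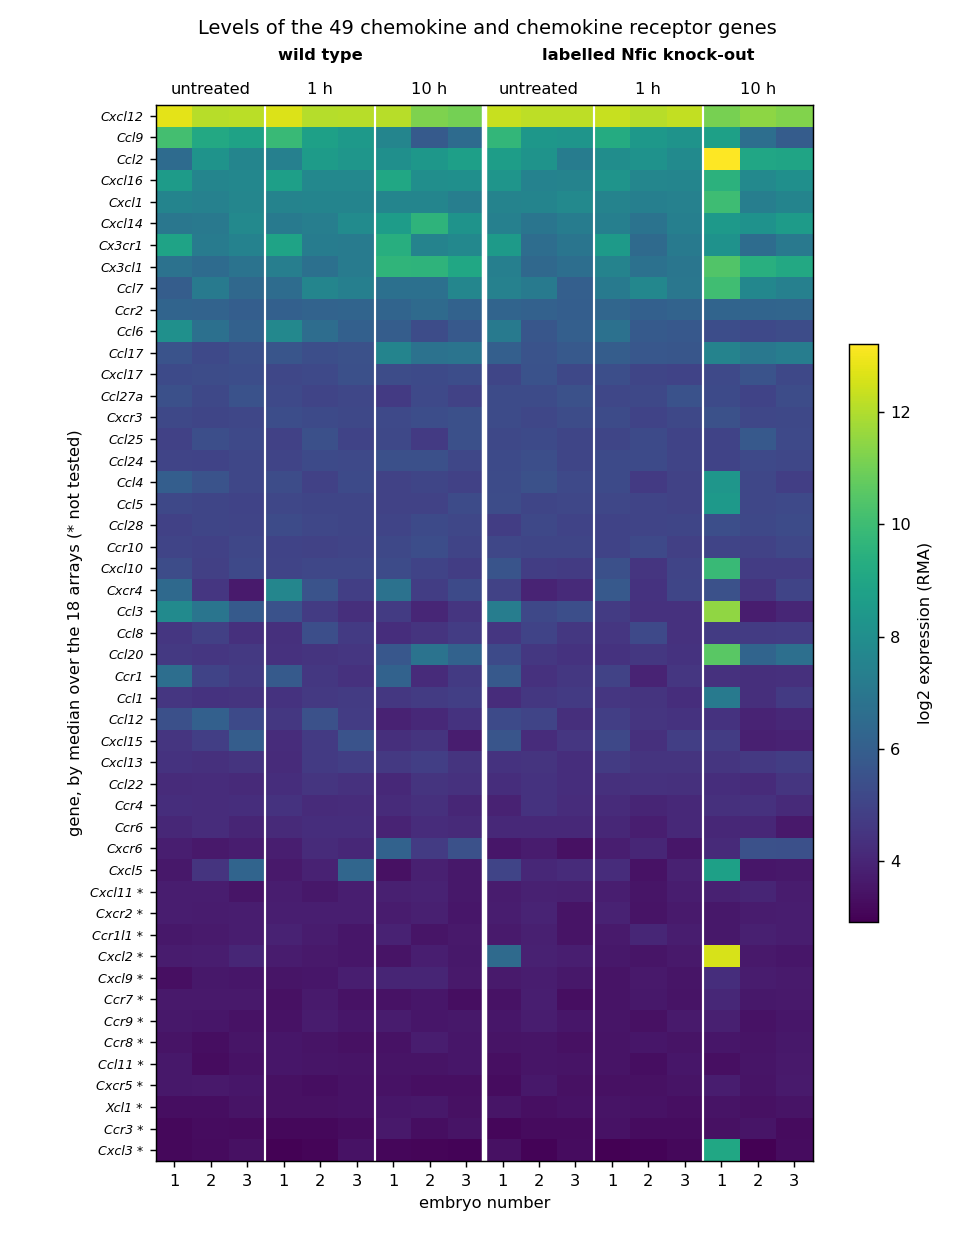
Heat map of the log2 level of each of the 49 genes (rows, ordered by median; an asterisk marks the 13 genes not tested) on each of the 18 arrays (columns, by genotype, time and embryo). Cxcl12 was bright on every array, at 11.07 to 12.79, and a column of bright cells marks the 10 h array of knock-out embryo 1.

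One array stood apart in its chemokines, the 10 h array of knock-out embryo 1. There 61 of 18194 genes (0.335%) lay over 1 log2 unit above the highest of the other 17 arrays, and 12 of the 49 chemokine and receptor genes (24.5%) were among them, all of them ligands. No other array had more than 1 such gene. The 12 were the Cxcr2 ligands Cxcl1, Cxcl2, Cxcl3 and Cxcl5, which draw neutrophils; the Cxcr3 ligand Cxcl10; the monocyte attractants Ccl2 and Ccl7; the Ccr6 ligand Ccl20; the Ccr8 ligand Ccl1; and Ccl3, Ccl4 and Ccl5. Ccl1, Ccl4 and Cxcl3 are named because their values were seen.

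Cxcl2 read 12.59 on that array and 3.46 to 6.48 on the others, so it stood 69.2-fold above the highest of them. Its next highest value, 6.48, was in the untreated culture of the same embryo, and the other 16 arrays did not exceed 4.03. Cxcl3 read 9.03 against 2.92 to 3.42, Cxcl10 read 9.91 against 4.52 to 5.61, and Ccl5 read 8.47 against 4.93 to 5.32. Ccl2 read 13.21 where no other array passed 8.99, and Ccl3 read 11.52 where none passed 7.84. Ccl20 stood at 10.57 against at most 6.85, Ccl7 at 10.06 against at most 7.69, and Cxcl5 at 8.75 against at most 6.30. Ccl4 and Ccl1 read 8.32 and 7.16 against at most 6.01 and 4.82. Cxcl5 was also raised in wild-type embryo 3, at 6.24 untreated and 6.30 at 1 h, but read 3.59 there at 10 h. For Cxcl1 the brightest probe set rose least: it read 10.02 against 7.32 to 7.77, while another read 12.49 against 3.51 to 6.59. This 6.59 was again the untreated culture of knock-out embryo 1, and the other 16 arrays did not exceed 5.17. That culture also held the 5.61 of Cxcl10 and the 5.32 of Ccl5, but other arrays came close, at 5.45 and 5.26. Cxcl3 and Ccl1 read 3.37 and 4.22 in it, and other arrays read higher. At 1 h the same embryo read 3.57 for Cxcl2 and 4.12 for Cxcl1 on that other probe set.

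**Figure D2:**
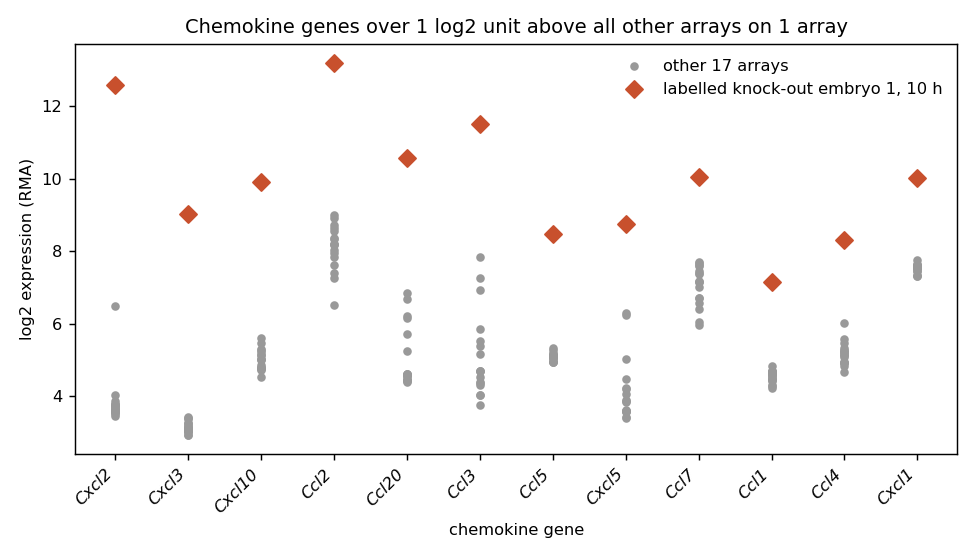
Log2 level (y axis) of the 12 chemokine genes (x axis) that were over 1 unit above every other array in the 10 h array of knock-out embryo 1 (diamonds); each grey point is 1 of the other 17 arrays. The diamond of Cxcl2 lies at 12.59 and the highest grey point at 6.48.

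Genes of NF-κB signalling stood high on the same array. Nfkbia, the inhibitor that NF-κB itself induces, read 12.64 against 10.00 to 11.31 elsewhere, and Il6, an inflammatory cytokine, read 9.54 against at most 7.65. The NF-κB inducers Tnf and Il1b, named because their values were seen, read 9.25 and 9.56 against at most 6.44 and 5.51. Of 19 genes of an NF-κB list 5 were over 1 unit above all other arrays, and of 24 cytokines and receptors that induce chemokines 8 were. The NF-κB list mean was 8.12 against at most 7.18 on the other arrays. The mean of 20 interferon response genes was 6.89, above the 5.48 to 6.05 of the other 10 h arrays and near the 6.94 of the highest untreated array. The mean of 22 leukocyte and macrophage markers was 9.22, within the 7.52 to 10.09 of the other arrays. The part of these genes in the chemokine levels was not tested, and knock-out results at 10 h that it moved are also given without it.

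Promoters are printed here for 3 of those ligands, because the genes lie in 1 cluster on chromosome 5 and their promoters share a 10-base match to the κB consensus, the binding sequence of NF-κB. Capitals mark this match, GGGAATTTCC, searched on both strands in the 250 bases before the gene start; the 130 bases nearest the start are shown, from RefSeq on GRCm38.p6, 5′ to 3′ on the gene's strand.
Cxcl1, chr5:90891115-90891244, + strand: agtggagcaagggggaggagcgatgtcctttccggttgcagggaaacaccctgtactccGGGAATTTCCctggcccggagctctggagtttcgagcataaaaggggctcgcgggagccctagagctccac
Cxcl2, chr5:90903769-90903898, + strand: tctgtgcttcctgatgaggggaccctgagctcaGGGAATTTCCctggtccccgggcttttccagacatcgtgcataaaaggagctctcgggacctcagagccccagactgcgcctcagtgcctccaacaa
Cxcl3, chr5:90785971-90786100, + strand: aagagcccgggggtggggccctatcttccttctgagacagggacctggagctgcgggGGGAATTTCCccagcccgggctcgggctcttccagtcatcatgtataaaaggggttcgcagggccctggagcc
The first base of the motif lay 71 bases before the start of Cxcl1, 97 before Cxcl2 and 73 before Cxcl3. The table held a promoter for 36 of the 49 genes. GGGAATTTCC occurred in 4 of these 36 (11.1%), the last being Ccr3. Over the table it occurred in 0.104% of 27025 genes and in 0.0852% of 32851 promoters. The motif was taken from Cxcl1, Cxcl2 and Cxcl3, so 3 of the 4 matches were fixed in advance. The gap between these shares is therefore not a result. Ccr3, the receptor of eosinophils, read 3.10 to 3.62 on all arrays. The broader κB consensus was present in 10 of 36 (27.8%) against 8.23% of all genes (7.25% of all promoters). GGGAATTTCC is a form of that consensus, so the genes that hold it are among the 10. Of the 12 ligands high on the array that stood apart, 7 had a promoter in the table. Of these, 6 held the κB consensus and Ccl3 did not. The shared motif was in 3 of them, Cxcl1, Cxcl2 and Cxcl3, from which it was taken. A match describes letters and is not a measured binding site.

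Cultures of embryo 1 stood high in myeloid genes in both genotypes. Of 22 leukocyte and macrophage markers 21 (95.5%) were highest in embryo 1 in all 6 groups, against 2.17% of all genes. The marker mean ran from 8.48 to 10.09 in untreated wild-type cells and from 7.72 to 9.43 in untreated knock-out cells, and from 8.01 to 9.83 and 7.52 to 9.22 at 10 h, with embryo 1 at the top of each. Of the 49 chemokine and receptor genes 8 (16.3%; 22.2% of the 36 tested) were highest in embryo 1 in all 6 groups: Ccl3, Ccl6, Ccl9, Ccl17, Cxcl16, Ccr1, Cx3cr1 and Cxcr4. In these bulk samples fewer cells of a type and less RNA per cell cannot be told apart.

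Among the receptors Cx3cr1 in embryo 1 lay 1.35 to 1.78 above the mean of the other embryos in every group, Cxcr4 lay 0.70 to 2.46 above and Ccr1 lay 0.08 to 1.78 above. Among the ligands Ccl9 in embryo 1 was 0.94 to 2.51 above, Ccl3 was 0.32 to 7.62 above, with the largest gap on the array that stood apart, and Cxcl16, the membrane-held ligand of Cxcr6, was 0.63 to 1.61 above. The markers moved with these genes from embryo to embryo and their part in the levels was not tested. Over time 1 of the 22 markers, Mrc1, fell at 10 h in wild type, and 0 passed in knock-out cells (1 without the array that stood apart, limma). Of all tested genes 33.7% and 34.7% changed in these comparisons. The fit held the gap between embryos in its error, so it could miss changes in these markers.

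**Figure D3:**
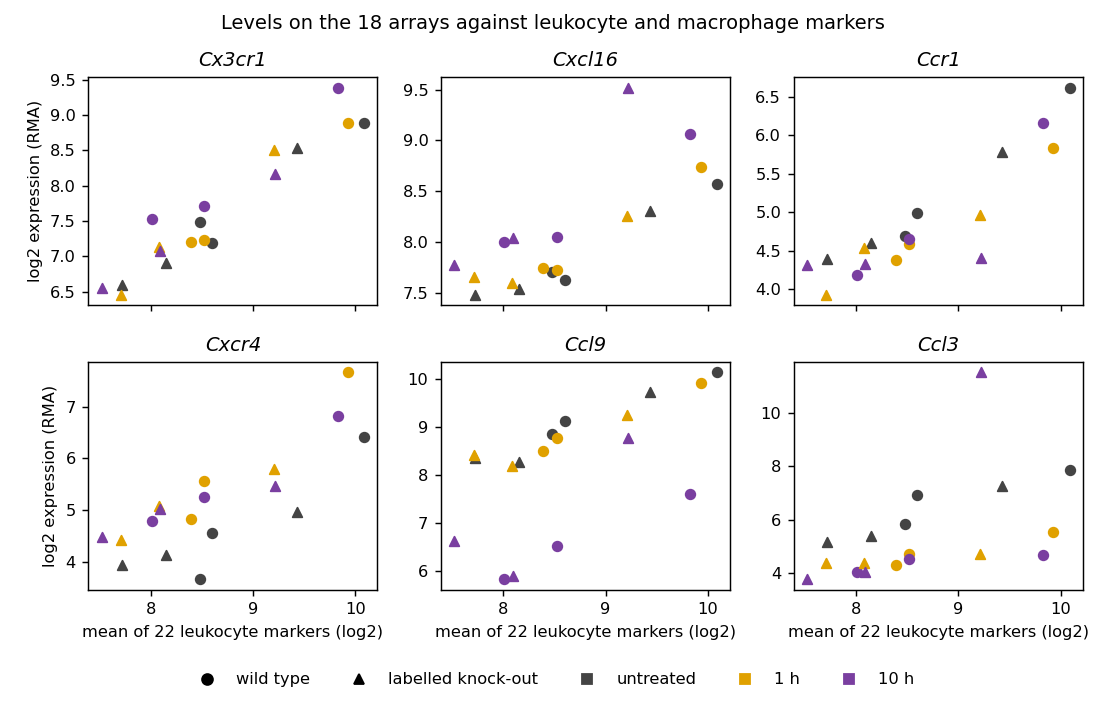
Log2 level (y axes) of 6 chemokine and receptor genes against the mean of 22 leukocyte and macrophage markers (x axis) on the 18 arrays; circles are wild type, triangles knock-out, and colours give the time. The embryo 1 arrays lie at the right, at marker means of 9.21 to 10.09, and Cx3cr1 there reads 8.17 to 9.39.

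At 10 h of TGF-β1, 8 of the 36 tested genes changed in wild-type cells, of which 4 rose and 4 fell (limma, adjusted p under 0.05 over 13679 genes). Of all tested genes 33.7% changed in this comparison, 14.9% upward and 18.8% downward. In knock-out cells 8 of 36 changed, 7 upward and 1 downward, where 34.7% of all genes changed, 13.9% upward and 20.7% downward. The median response of the 36 genes was 0.07 in wild type and 0.20 in knock-out cells, against 0.01 and -0.03 over all genes; without the array that stood apart the knock-out median was -0.02. The share that changed in either direction was below the background in both genotypes. Without the array that stood apart, 8 knock-out genes changed (5 up and 3 down, background 30.2%), and 11 wild-type genes (5 up and 6 down, background 34.6%). The knock-out count was 4 without knock-out embryo 3 and 5 when only the groups compared entered the fit.

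With each of the 6 embryos as a block, since the same embryos gave all times, 13 genes changed in wild type (7 up, 6 down, background 40.1%) and 14 in knock-out cells (10 up, 4 down, background 40.3%). Because the count varied between these fits, the following members are given embryo by embryo, ligands first.

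**Figure D4:**
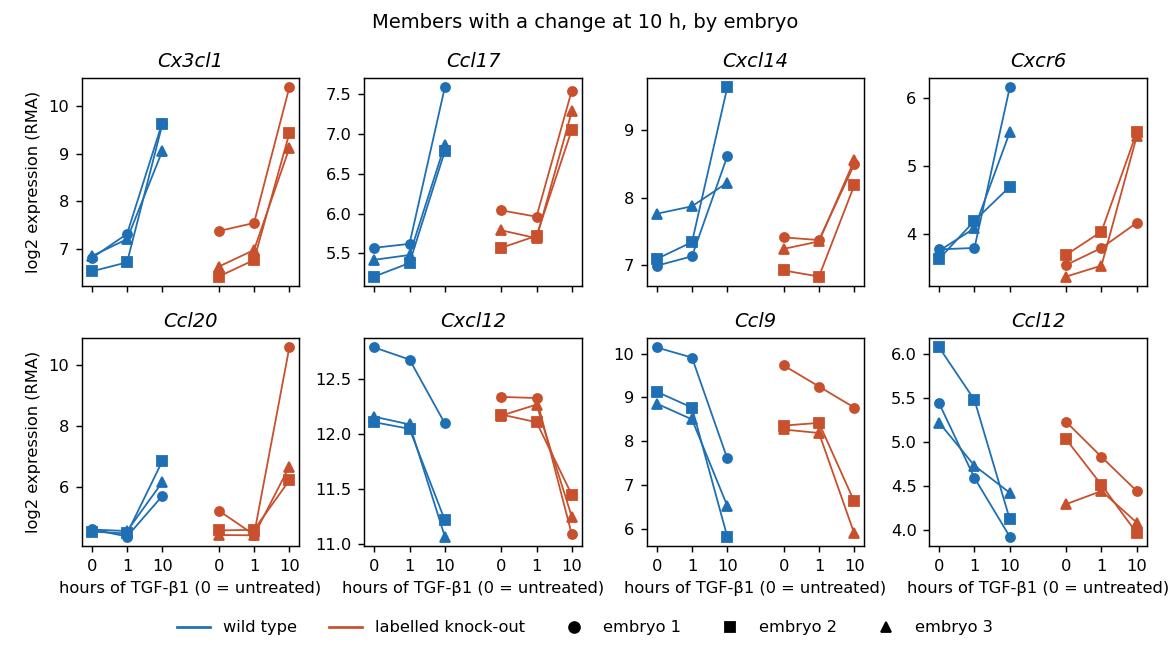
Log2 level (y axis) of 8 genes against hours of TGF-β1 (x axis), with a line for each embryo (blue wild type, red knock-out; symbols give the embryo number). The lines of Cx3cl1, Ccl17, Cxcl14, Cxcr6 and Ccl20 end higher at 10 h than untreated in all 6 embryos, and those of Cxcl12, Ccl9 and Ccl12 end lower in all 6.

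Cx3cl1, or fractalkine, a membrane-held ligand for Cx3cr1, rose most among the 36 tested chemokine and receptor genes in wild type. In wild-type embryos 1, 2 and 3 it read 6.80, 6.52 and 6.84 untreated, 7.31, 6.71 and 7.20 at 1 h, and 9.66, 9.62 and 9.06 at 10 h. The knock-out embryos read 7.37, 6.41 and 6.62, then 7.54, 6.76 and 6.97, and at 10 h 10.40, 9.43 and 9.12. Every 10 h array was above every untreated one in both genotypes. The 10 h difference was 2.73 ± 0.31 (SE), or 6.62-fold (limma adjusted p = 9.1e-06), in wild type. In knock-out cells it was 2.85 ± 0.31, or 7.20-fold (limma adjusted p = 5.5e-06), and 2.47 ± 0.29 without the array that stood apart. Another probe set of Cx3cl1 read 5.88 to 6.61 untreated and 7.27 to 9.13 at 10 h. The remaining ones were near background, at 3.47 to 4.18 untreated and 3.76 to 5.78 at 10 h. With the mean over all Cx3cl1 probe sets the difference was 1.32 ± 0.24 in wild type (limma adjusted p = 5.1e-04). In knock-out cells it was then 1.51 ± 0.24 (limma adjusted p = 1.4e-04).

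Ccl17, a ligand of Ccr4 on T cells, is the next protein-coding gene to Cx3cl1 on chromosome 8 and rose with it. It read 5.57, 5.21 and 5.42 untreated and 7.58, 6.78 and 6.86 at 10 h in the wild-type embryos, with 5.62, 5.38 and 5.48 at 1 h. In knock-out embryos it read 6.04, 5.57 and 5.79 untreated, 5.96, 5.72 and 5.69 at 1 h and 7.54, 7.05 and 7.28 at 10 h. The rise was much alike across embryos, between 1.44 and 2.01, and no untreated array reached a 10 h array. The 10 h difference was 1.67 ± 0.19 in wild type (3.19-fold, limma adjusted p = 7.3e-06) and 1.49 ± 0.19 in knock-out cells (2.81-fold, limma adjusted p = 1.9e-05). The gene on the other side of Cx3cl1, Ccl22, also a Ccr4 ligand, read 4.11 to 4.52 on all arrays. The 130 bases before the start of Cx3cl1 and Ccl17 are shown because the neighbours rose together; neither holds GGGAATTTCC or the κB consensus in its 250-base window, and nothing follows from that about the factor.
Cx3cl1, chr8:94772050-94772179, + strand: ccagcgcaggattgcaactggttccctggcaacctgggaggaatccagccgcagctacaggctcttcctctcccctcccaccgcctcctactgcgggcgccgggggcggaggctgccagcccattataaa
Ccl17, chr8:94810323-94810452, + strand: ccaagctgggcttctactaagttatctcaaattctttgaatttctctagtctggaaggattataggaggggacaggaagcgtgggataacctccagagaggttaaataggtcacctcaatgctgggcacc

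Cxcl14, a ligand of skin and other epithelia, read 6.99, 7.09 and 7.76 untreated and 8.61, 9.63 and 8.22 at 10 h in wild type. In knock-out cells it read 7.41, 6.92 and 7.24 untreated and 8.49, 8.18 and 8.55 at 10 h. No 10 h array overlapped an untreated array of its genotype, and wild-type embryo 3 rose least, by 0.46. The differences were 1.54 ± 0.30 (2.91-fold, limma adjusted p = 0.00108) and 1.22 ± 0.30 (2.33-fold, limma adjusted p = 0.00549). Without knock-out embryo 3 the knock-out adjusted p was 0.0561. The other Cxcl14 probe set rose by 1.05 ± 0.25 and 0.93 ± 0.25.

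Ccl20, which draws Ccr6-bearing dendritic and Th17 cells, rose in all 6 embryos. Wild-type cells read 4.62, 4.54 and 4.61 untreated and 5.71, 6.85 and 6.16 at 10 h, and knock-out cells 5.23, 4.58 and 4.43 untreated and 10.57, 6.22 and 6.67 at 10 h. The value of 10.57 is from the array that stood apart. All 10 h arrays were above all untreated ones. The change was 3.08 ± 0.73 in knock-out cells (limma adjusted p = 0.00396) and 1.65 ± 0.73 in wild type (limma adjusted p = 0.0945). Without that array both passed, at 1.70 ± 0.26 (limma adjusted p = 2.2e-04) in knock-out and 1.65 ± 0.24 (limma adjusted p = 8.4e-05) in wild type. Ccl20 was among the genes that set the array apart, so these p values are a description.

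Ccl2, the main monocyte attractant, and Ccl7, its neighbour and fellow Ccr2 ligand, differed in how steadily they moved. Ccl2 was higher at 10 h than untreated in 6 of 6 embryos, by 0.16 to 4.57, and Ccl7 in 5 of 6. Ccl2 read 6.50, 8.21 and 7.61 untreated and 8.04, 8.36 and 8.72 at 10 h in wild type, where the groups overlapped. In knock-out cells it read 8.64, 8.19 and 7.25 untreated and 13.21, 8.99 and 8.91 at 10 h. The difference of 2.35 ± 0.82 in knock-out cells passed (limma adjusted p = 0.0363) but fell to 0.92 ± 0.46 without the 10 h array of knock-out embryo 1 (limma adjusted p = 0.147). Wild type differed by 0.94 ± 0.82 (limma adjusted p = 0.401). Leaving out wild-type embryo 2 or 3, or knock-out embryo 1 or 3, also took the knock-out adjusted p of Ccl2 above the threshold, to between 0.0547 and 0.0917. Ccl7 went from 7.45, 7.16 and 6.05 to 10.06, 7.69 and 7.39 in knock-out cells, by 1.49 ± 0.57 (limma adjusted p = 0.0536, and 0.0157 with the embryo as a block), and by 0.65 ± 0.44 without that array (limma adjusted p = 0.295). In wild type Ccl7 moved by 0.51 ± 0.57 (limma adjusted p = 0.519).

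Cxcl12, the ligand of Cxcr4, fell in both genotypes. Wild-type embryos read 12.79, 12.11 and 12.16 untreated and 12.10, 11.22 and 11.07 at 10 h, and knock-out embryos 12.34, 12.18 and 12.17 untreated and 11.09, 11.45 and 11.25 at 10 h. The wild-type groups nearly touched, embryo 1 being the highest at each time, and the knock-out groups were further apart. Cxcl12 fell by 0.89 on the log2 scale (SE 0.24, limma adjusted p = 0.00955) in wild type and by 0.97 (SE 0.24, limma adjusted p = 0.00527) in knock-out cells. Without wild-type embryo 3 the wild-type adjusted p was 0.0618, and without knock-out embryo 1 the knock-out adjusted p was 0.0792.

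Ccl9, a Ccr1 ligand made by macrophages and stromal cells, fell furthest among the 36 tested chemokine and receptor genes in wild type. There it read 10.14, 9.13 and 8.86 untreated and 7.61, 5.83 and 6.53 at 10 h. In knock-out cells it read 9.73, 8.36 and 8.27 untreated and 8.77, 6.63 and 5.90 at 10 h. The wild-type groups did not overlap and the knock-out groups did, through embryo 1 at 8.77. Ccl9 fell by 2.72 (SE 0.66, limma adjusted p = 0.00466) in wild type, and the knock-out difference was -1.69 ± 0.66 (limma adjusted p = 0.0582). That difference passed with the embryo as a block (limma adjusted p = 3.5e-04) and without the array that stood apart, at -2.53 ± 0.58 (limma adjusted p = 0.00411). Without wild-type embryo 2 the wild-type adjusted p of Ccl9 was 0.0506.

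Ccl12, a mouse Ccr2 ligand, read 5.44, 6.08 and 5.22 untreated and 3.92, 4.12 and 4.42 at 10 h in wild type, where no values overlapped. It read 5.23, 5.03 and 4.29 and then 4.44, 3.96 and 4.08 in knock-out cells, where they did. Ccl12 fell by 1.43 in wild type (SE 0.27, limma adjusted p = 8.6e-04). The knock-out difference was -0.69 ± 0.27 (limma adjusted p = 0.0633, and 0.0146 with the embryo as a block). At 10 h Ccl12 was above the level of the filter on only 1 array in each genotype, so background limits the size of both differences. Ccl6, another Ccr1 ligand, named because its values were seen, read 8.07, 6.71 and 6.11 untreated and 5.94, 5.30 and 5.79 at 10 h in wild type, a difference of -1.29 ± 0.48 (limma adjusted p = 0.0515, and 0.00384 with the block). In knock-out cells the Ccl6 difference was -0.99 ± 0.48 (limma adjusted p = 0.130, and 0.0161 with the block).

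Smaller changes passed for the Ccr10 ligands of skin and mucosa. Ccl27a fell by 0.43 (SE 0.15, limma adjusted p = 0.0312) in wild type, where embryo 2 did not go down (+0.04), and differed by -0.16 in knock-out cells (limma adjusted p = 0.440). Ccl28 rose by 0.29 ± 0.10 in knock-out cells (limma adjusted p = 0.0322) from 4.80 to 5.14 untreated to 5.14 to 5.39 at 10 h. With the mean over the Ccl28 probe sets its knock-out difference was 0.10 (limma adjusted p = 0.478), and without the array that stood apart it was 0.22 ± 0.11 (limma adjusted p = 0.135). Ccl27a no longer passed without embryo 1 or 3 of the wild type, at adjusted p of 0.288 and 0.184, and Ccl28 without knock-out embryo 1 or 3, at 0.423 and 0.127, and without wild-type embryo 3, at 0.0596.

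Among the receptors Cxcr6 rose at 10 h. Cxcr6, the receptor of Cxcl16 on T and NKT cells, read 3.77, 3.63 and 3.75 untreated and 6.15, 4.69 and 5.49 at 10 h in wild type, and 3.54, 3.69 and 3.37 untreated and 4.16, 5.49 and 5.43 at 10 h in knock-out cells. Its untreated values were all below the 40th percentile and its 10 h values reached above it on 5 of 6 arrays, the exception being knock-out embryo 1 at 4.16. The groups did not overlap. The difference was 1.73 ± 0.33 (limma adjusted p = 8.3e-04) in wild type and 1.49 ± 0.33 (limma adjusted p = 0.00234) in knock-out cells. No fold is given against untreated values at background, and since the 10 h arrays admitted Cxcr6 to the test, its call is a description. Without knock-out embryo 3 the knock-out adjusted p of Cxcr6 was 0.0530. Its ligand Cxcl16 read 8.57, 7.62 and 7.70 untreated and 9.06 at 10 h in embryo 1 and at most 8.05 in the others in wild type, a difference of 0.41 ± 0.44 (limma adjusted p = 0.500). In knock-out cells Cxcl16 differed by 0.67 ± 0.44 (limma adjusted p = 0.267, and 0.00537 with the block), and by 0.13 ± 0.39 without the array that stood apart (limma adjusted p = 0.845).

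The other receptors did not pass at 10 h without a block. Cx3cr1, the receptor of Cx3cl1 on macrophages and microglia, read 8.89, 7.19 and 7.49 untreated and 9.39, 7.53 and 7.72 at 10 h in wild type, by 0.35 ± 0.70 (limma adjusted p = 0.722, and 0.0224 with the block). In knock-out cells Cx3cr1 read 8.53, 6.59 and 6.91 and then 8.17, 6.55 and 7.08. On this probe set the receptor moved by at most 0.50 in the 6 embryos in which its ligand Cx3cl1 rose by 2.23 to 3.10. The other Cx3cr1 probe set read 5.82, 4.87 and 5.21 untreated and 7.55, 5.89 and 5.39 at 10 h in wild type. In knock-out cells that probe set read 6.17, 5.02 and 4.13 untreated and 6.64, 4.48 and 5.12 at 10 h. Cxcr4, the receptor of Cxcl12, read 6.42, 4.56 and 3.67 untreated and 6.81, 4.80 and 5.25 at 10 h in wild type, a difference of 0.73 ± 0.73 (limma adjusted p = 0.462, and 0.0173 with the block). In knock-out cells Cxcr4 differed by 0.64 ± 0.73 (limma adjusted p = 0.550, and 0.0326 with the block). Ccr1, a receptor of Ccl3, Ccl5, Ccl6 and Ccl9 on myeloid cells, differed by -0.43 ± 0.56 and -0.57 ± 0.56 (limma adjusted p = 0.578 and 0.471). Ccr2, Ccr4, Ccr6 and Ccr10 are the receptors of Ccl2, Ccl17, Ccl20 and Ccl28. They read 5.99 to 6.46, 3.89 to 4.44, 3.63 to 4.26 and 4.85 to 5.37 over the 18 arrays. None of these receptors passed a test at either time. The Ccr2 range rests on its brightest probe set alone. The other Ccr2 probe sets read 2.99 to 3.63, below the level of the filter on every array. Ccr4 was above that level on 9 of the 18 arrays and Ccr6 on 3.

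After 1 h none of the 36 tested genes changed in wild-type cells, where 0.585% of all genes changed, and none in knock-out cells, where 0.490% did (limma). At an unadjusted p under 0.05 there was 1 gene in wild type, Ccl12, at -0.65 ± 0.27 (limma adjusted p = 0.666), and 0 in knock-out cells. The medians were 0.02 and -0.06 against -0.01 over all genes in both.

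Cxcr4 nonetheless was higher at 1 h in 6 of 6 embryos. It read 7.66, 5.56 and 4.84 at 1 h in wild type, above the untreated value of the same embryo by 1.24, 1.00 and 1.17. In knock-out embryos it read 4.96, 3.95 and 4.14 untreated and 5.79, 4.43 and 5.08 at 1 h, above by 0.82, 0.47 and 0.94. Untreated Cxcr4 was above the level of the filter on only 2 wild-type arrays and 1 knock-out array. Its differences at 1 h and at 10 h are thus in part taken from values near background. The groups overlapped. The wild-type difference was 1.14 ± 0.73 (limma adjusted p = 0.891), and with the embryo as a block 1.14 ± 0.22 (limma adjusted p = 0.0277), the 1 call among the 36 in that fit. The knock-out difference was 0.75 ± 0.73 (limma adjusted p = 1.00), and 0.75 ± 0.22 with the block (limma adjusted p = 0.311).

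Ccl3, an attractant of macrophages and T cells, was lower at 1 h in 6 of 6 embryos. It read 7.84, 6.92 and 5.85 untreated, 5.52, 4.70 and 4.31 at 1 h and 4.69, 4.04 and 4.52 at 10 h in wild type. In knock-out embryos it read 7.27, 5.17 and 5.39 untreated, 4.70, 4.38 and 4.37 at 1 h and 11.52, 3.76 and 4.03 at 10 h. The untreated and 1 h groups did not overlap in either genotype. The 1 h differences were -2.03 ± 1.38 and -1.46 ± 1.38 (limma adjusted p = 0.913 and 1.00), with an SE that includes the spread of the 10 h knock-out group; the wild-type difference passed without knock-out embryo 1, as the 1 call in that fit. At 10 h the differences were -2.45 ± 1.38 and 0.49 ± 1.38 (limma adjusted p = 0.183 and 0.826). Without the array that stood apart Ccl3 fell by 2.45 (SE 0.51, limma adjusted p = 0.00182) in wild type and by 2.05 (SE 0.57, limma adjusted p = 0.0139) in knock-out cells. Ccl3 was among the genes that set that array apart, so these p values are a description. At 10 h it was above the level of the filter on 2 wild-type arrays and 1 knock-out array, the 1 that stood apart, so these falls end near background.

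Between the genotypes no chemokine or receptor passed the test. The calls were 0 of 36 in untreated, 1 h and 10 h cells and when the 3 arrays of an embryo were averaged, and 0 when the responses at 1 h or at 10 h were compared between genotypes, where 0% of all 13679 genes passed in each (limma). At an unadjusted p under 0.05 the 36 held 1, 0 and 3 genes in untreated, 1 h and 10 h cells, against 460, 846 and 721 over all genes, 0 and 1 for the response differences, against 233 and 305, and 0 for the embryo mean, against 659. The 3 at 10 h were Ccl2, Ccl7 and Ccl20, which were high on the array that stood apart. With the replicate number as a block 1 gene passed at 10 h, Cx3cr1, at -0.95 ± 0.12 (limma adjusted p = 0.0217, against 0.940 without it), though embryos of the same number in the 2 genotypes are different animals.

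Intervals for the difference in response were wide. At 10 h the knock-out minus wild-type difference was 0.12 for Cx3cl1 (95% interval -0.82 to 1.06), -0.18 for Ccl17 (-0.75 to 0.38) and -0.08 for Cxcl12 (-0.80 to 0.65). The interval was wider for Ccl9, at 1.03 (-0.95 to 3.01), and for Ccl2, at 1.41 (-1.06 to 3.88). Both of the last rested on the array that stood apart: without it the difference was 0.19 ± 0.78 for Ccl9 and -0.01 ± 0.61 for Ccl2 (limma adjusted p = 1.00 for both), and it was -0.25 ± 0.38 for Cx3cl1.

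Genes around the chemokine system moved at 10 h as follows, counted over lists chosen with earlier results of these data known; the background shares given above apply. Among 11 tested atypical receptors and chemokine-like genes, 2 rose and 2 fell in each genotype. Ackr3, the receptor that scavenges Cxcl12, read 9.27, 8.66 and 9.84 untreated and 8.28, 9.24 and 7.81 at 10 h in wild type, with embryo 2 rising, and 9.87, 9.65 and 9.75 untreated and 8.29, 8.38 and 8.60 at 10 h in knock-out cells. Ackr3 fell by 1.33 (SE 0.30, limma adjusted p = 0.00265) in knock-out cells and by 0.81 (SE 0.30, limma adjusted p = 0.0472) in wild type, where the groups overlapped and the adjusted p was 0.0523 without the array that stood apart. Cmtm3, a chemokine-like membrane protein gene, fell by 0.56 and 0.54 in wild type and knock-out cells (limma adjusted p = 5.1e-05 and 5.9e-05), while Cmtm7 rose by 0.41 and 0.31 (limma adjusted p = 5.2e-04 and 0.00423).

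Of 31 genes that carry the signal from chemokine receptors, 5 rose and none fell in wild type, and 9 rose and 1 fell in knock-out cells. Ptk2b, the kinase Pyk2, rose by 1.66 ± 0.17 and 1.79 ± 0.17 (limma adjusted p = 2.3e-06 and 1.0e-06), Grk6, a kinase that desensitises receptors, by 0.53 in both (limma adjusted p = 4.6e-04 and 3.9e-04), and Itch, a ubiquitin ligase that acts on Cxcr4, by 0.40 and 0.46 (limma adjusted p = 0.00316 and 9.7e-04). Of 18 NF-κB genes 2 rose and 2 fell in wild type, and 6 rose and 1 fell in knock-out cells; without the array that stood apart the knock-out counts were 4 and 4. Ikbkg, a subunit of the kinase that frees NF-κB, fell by 0.59 and 0.60 (limma adjusted p = 5.0e-05 and 4.2e-05). Nfkbia differed by 0.17 ± 0.48 and 0.53 ± 0.48 (limma adjusted p = 0.802 and 0.435), and by -0.27 ± 0.29 in knock-out cells without that array (limma adjusted p = 0.531).

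Of 23 cytokines and receptors that induce chemokines, 4 rose and 8 fell in wild type, and 3 rose and 7 fell in knock-out cells. Il6 rose by 3.36 ± 0.52, from 3.76 to 4.11 untreated to 6.87 to 7.65, in wild type (limma adjusted p = 1.3e-04), and by 3.71 ± 0.52 in knock-out cells (limma adjusted p = 4.8e-05), or 2.90 ± 0.36 without the array that stood apart. Its untreated values were near background, so no fold is given. Lif, a cytokine of the Il6 family, rose by 2.66 ± 0.35 and 3.23 ± 0.35 (limma adjusted p = 3.6e-05 and 5.4e-06), and Csf1, the growth factor of macrophages, by 1.15 ± 0.23 and 1.74 ± 0.23 (limma adjusted p = 0.00136 and 3.5e-05). Without the array that stood apart the knock-out rises were 2.63 ± 0.22 for Lif and 1.44 ± 0.20 for Csf1. Tnfrsf1a, the main receptor of Tnf, fell by 0.42 and 0.54 (limma adjusted p = 0.00143 and 1.7e-04).

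Of 19 interferon response genes 9 fell and none rose in wild type, where 18.8% of all genes fell. In knock-out cells 4 of 19 fell and none rose, a share close to the 20.7% of all genes, and 10 of 19 fell without the array that stood apart (11 of 19 in wild type). Ifit2, an antiviral gene, fell by 2.46 (SE 0.21, limma adjusted p = 6.1e-07) and by 2.05 (SE 0.21, limma adjusted p = 3.3e-06). Ifit3 fell by 2.53 (SE 0.44, limma adjusted p = 4.0e-04) and by 1.52 (SE 0.44, limma adjusted p = 0.0139). The interferon-inducible chemokine Cxcl10 was not among the genes that changed, at 4.52 to 5.61 on the 17 arrays other than the 1 that stood apart.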

How the data were processed

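Each of the 18 Affymetrix arrays gave 1 value per probe set, deposited by the authors on a log2 scale, which was read from the range of 2.49 to 14.47; RMA was used per the submitters' processing notes, with no version stated there. The method takes off background and makes the arrays alike, so a change in total RNA is not visible. Of 45101 probe sets 34958 carried a single symbol, 932 several, and 9211 none. Each gene was read by its brightest single-symbol probe set (77 probe sets for the 49 genes, of which 18 had more than 1).

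A mean per group was fitted over all 18 arrays with limma 3.58.1 in R 4.3.3 (12 residual degrees of freedom, empirical Bayes, two-sided). P values were adjusted by Benjamini-Hochberg over 13679 genes, with a threshold of 0.05. Errors are SE of that fit. The test was checked on simulated data.

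The members, gene lists and tests were chosen with earlier results of these data known. Genes named are the members past the threshold, the 10 with the highest median, the 5 tested with the widest spread within groups, and a set of 11 more; up to 4 per other list; and Ackr3, Nfkbia, Il6 and Nfic. Others are named because their values were seen: Ccl1, Ccl4, Ccl6, Ccl22, Cxcl3, Ccr3, Ccr4, Ccr6, Ccr10, Cxcr3, Tnf, Il1b and Mrc1.

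Within a genotype the replicate number is the embryo per the labels. Deviations from group means correlated at 0.592 to 0.763 between untreated and 1 h arrays of an embryo. Between untreated and 10 h arrays they correlated at 0.282 to 0.388 in knock-out embryos and at 0.487, -0.0638 and -0.204 in wild-type embryos 1, 2 and 3. Deviations of wild-type and knock-out arrays with the same number also correlated, at 0.0729 to 0.541 untreated and 0.104 to 0.487 at 1 h. At 10 h these correlations were -0.198 to 0.135. The alternatives were the embryo block, other filters, other probe set rules, renewed quantile normalization, only the groups compared, and each embryo left out. Leaving out 1 array was added after seeing the data. That array was picked by its high ligand values, Ccl20 and Ccl3 among them, so p values without it are a description.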

Additional observations from a re-analysis of the deposited data

Results flagged for a closer look

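Cxcr3, the receptor of Cxcl10 on T cells, moved in opposite directions at 1 h in the 2 genotypes: by 0.20, 0.17 and 0.04 in wild-type embryos 1, 2 and 3 and by -0.00, -0.10 and -0.15 in knock-out embryos. The difference between the responses was -0.22 ± 0.16 (SE), with a limma adjusted p of 1.00. All these changes lie within the 5.00 to 5.49 that Cxcr3 spanned over the 18 arrays.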

How the results depend on the processing

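Of 16 calls of a named gene at 10 h, 7 held in each alternative run in which the gene was tested. The wild-type calls of Ccl12 and Cxcr6 are among the 7. These genes were not tested under the stricter filter, at the 60th percentile. Over 203 such values 181 kept direction and side of the threshold, 22 kept direction but lost the call, and 0 reversed. With the embryo as a replicate block, which the labels support within a genotype, calls at 10 h went from 8 to 13 in wild type. In knock-out cells they went from 8 to 14, and at 1 h in wild type from 0 to 1. Between genotypes, where the labels share only a number, the block gave 1 call at 10 h. The block changed no other count. With only the groups compared in the fit, the knock-out 10 h count was 5. Leaving out each embryo in turn gave 7 to 12 calls in wild type and 4 to 10 in knock-out cells at 10 h, the lowest without knock-out embryo 3, and 0 to 1 in wild type at 1 h. With only the groups compared, Ccl2 (adjusted p = 0.150), Ccl20 (0.0601) and Ccl28 (0.122) in knock-out cells, and Ccl27a (0.0982) and Cxcl12 (0.0668) in wild type, lost their limma calls; the cause was not tested. With 3 embryos a group, and probe sets such as those of Cxcr6 near background, small changes could not be resolved.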
